A study of Mus musculus with 19 samples.

Results

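Genes of heat production and of muscle-type mitochondria were followed in differentiated 3T3-L1 cells, a clonal mouse fibroblast line that becomes fat-storing adipocytes in culture. The 9 genes were Ucp1, Ppargc1a, Prdm16, Dio2, Elovl3, Cox6a2, Cox7a1, Cox8b and Chchd10, out of 18820 genes with 1 symbol on the array. They were taken by symbol, and each was read from its brightest probe set by the mean over the 19 arrays. Of them 7 had 1 probe set and 2, Ppargc1a and Prdm16, had 2 each. All cells were kept without serum from day 7 of differentiation and treated for 48 h from day 8 in medium with insulin and 2% bovine serum albumin. The acids were given at 250 µM in ethanol: palmitic acid (PA, 16 carbons and 0 double bonds, n = 4), palmitoleic acid (PMA, 16 carbons and 1 double bond, titled PMO on the arrays, n = 4), stearic acid (SA, 18 carbons and 0 double bonds, n = 4) and oleic acid (OA, 18 carbons and 1 double bond, n = 3). Control cells (n = 4) received albumin and ethanol. Replicates are titled biological, without a word on which cultures they came from. The p-values therefore measure the spread between these samples, which may be technical.

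Brown and beige adipocytes burn fuel to make heat. Their mitochondria hold the uncoupling protein Ucp1, which lets protons back across the inner membrane without making ATP, and their nuclei hold the coactivator Ppargc1a, which drives the making of mitochondria, and Prdm16, which favours the brown fate over the muscle fate. The deiodinase Dio2 makes active thyroid hormone inside the cell, and Elovl3 lengthens saturated and monounsaturated fatty acids. Cytochrome c oxidase, the last complex of the respiratory chain, has subunits that come in a widely expressed form and a form of heart, skeletal muscle and, for several of them, brown fat. Cox6a2, Cox7a1 and Cox8b encode such muscle-type forms. Chchd10 encodes a small protein of the mitochondrial intermembrane space that is abundant in heart and skeletal muscle, and whose human counterpart is mutated in forms of motor neuron disease and myopathy.

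Chchd10 and Cox6a2 were the 2 members that passed a test of any difference among the 5 groups, and in both the 18-carbon acids lay below the 16-carbon acids. Averaged over both acids of a chain length, Chchd10 was 1.47-fold higher and Cox6a2 1.29-fold higher with 16 carbons than with 18. Against control cells, Cox6a2 fell by 0.43 on the log2 scale with SA and by 0.41 with OA, while the 16-carbon acids left it at -0.10 (PA) and -0.01 (PMA). Both falls sit at the threshold: the SA call was lost without any 1 of 13 arrays, the OA call without any 1 of 10, and both with the replicate number as a block (adjusted p = 0.0665 and 0.0634). The averages over a chain length were compared after the values had been seen, and the Cox6a2 call there was lost without PMA replicates 1 and 4 (adjusted p = 0.075). No acid moved Chchd10 past the threshold against control. Its calls in PA against SA and in PMA against OA were each lost without certain single arrays. Ppargc1a was lowest with PA, but its differences did not pass the test. The thermogenic members Ucp1, Dio2, Elovl3 and Prdm16 and the oxidase subunits Cox7a1 and Cox8b passed in no comparison. Differences are log2 values, the first group named minus the second, with the standard error of a limma fit to all 19 arrays. A gene passed at a Benjamini-Hochberg adjusted p under 0.05 over all 18820 genes.

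The cells carried the markers of adipocytes. Mean levels over the 19 arrays were 12.24 for Adipoq, 12.36 for Fabp4, 11.56 for Plin1 and 12.25 for Cidec, on the log2 scale of robust multi-array average (RMA) values. Dlk1, a marker of preadipocytes, was also bright at 11.53, and its part in the results was not tested. In such bulk samples fewer cells of a type and less RNA per cell cannot be told apart. The files used here carry no detection calls, so 1157 olfactory and vomeronasal receptor genes, not expected in adipocytes, served as a guide to background. Their median level was 3.51 and their 95th percentile 4.94. Probe sets differ in how well they bind, so this comparison is only a guide. The macrophage gene Adgre1 (3.54), the endothelial gene Pecam1 (4.63) and the muscle regulators Myog (4.37) and Myf5 (4.10) lay under that percentile, and Myod1 (5.14) lay just above it. Other genes of the same lists lay well above it, such as Des (8.80), Mb (6.99), Cd68 (6.32) and Vwf (5.67). Above that percentile were 18 of 29 muscle genes, 5 of 13 macrophage and T cell markers and 3 of 8 endothelial markers. The summed level of 29 muscle genes, given as their mean, was 5.27 to 5.50 on PA arrays, 5.26 to 5.42 on PMA arrays, 5.25 to 5.39 on SA arrays, 5.27 to 5.31 on OA arrays and 5.24 to 5.34 on control arrays, and 0 of the 29 passed the F test or any comparison. Array medians ran between 5.23 and 5.43. On the first principal component, with 31.2% of the variance, PA replicates 2 and 4 stood apart, and on the second, with 13.7%, PMA replicates 1 and 4 did.

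Among the thermogenic members, Ucp1 itself gave a signal within the background range. Its level was 3.85, 4.08, 3.95 and 3.94 on PA arrays, 4.17, 3.81, 3.88 and 4.13 on PMA arrays, 3.81, 3.75, 4.03 and 3.86 on SA arrays, 3.96, 3.84 and 3.88 on OA arrays and 3.95, 3.93, 3.88 and 3.97 on control arrays. Of the olfactory and vomeronasal genes, 72.8% lay below its mean of 3.93. All groups overlapped, and the largest difference from control was -0.07 ± 0.08 with SA (95% interval -0.23 to 0.09). Dio2 averaged 4.33, above 85.8% of those genes, and ranged between 4.24 and 4.48 over the 19 arrays. Its differences from control were 0.02 (PA), 0.02 (PMA), 0.04 (SA) and -0.02 (OA), each with a standard error of 0.06. The intervals of the differences from control reached from -0.23 to 0.22 for Ucp1 and from -0.14 to 0.16 for Dio2.

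Elovl3, which averaged 5.39 and lay above 98.6% of the receptor genes, passed with none of the acids. Its level was 5.31 ± 0.12 with PA, 5.39 ± 0.24 with PMA, 5.39 ± 0.19 with SA and 5.49 ± 0.08 with OA (SD, n = 3), against 5.41 ± 0.09 in control cells (SD, n = 4 in the other groups). The intervals of its differences from control reached at most 0.31 in either direction. Its relative Elovl6, which lengthens palmitate to stearate, was at 0.00 (PA), 0.11 (PMA), -0.05 (SA) and -0.13 (OA) against control. None of the 6 elongases measured passed a comparison or the F test.

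Prdm16 lay above 99.6% of the receptor genes, with 5.92, 6.42, 6.06 and 6.17 on PA arrays and 6.09, 5.88, 5.97 and 5.88 on control arrays. The PA values overlapped those of control, and PA replicate 2, one of the arrays that stood apart, was the highest of all 19. PA against control was 0.19 ± 0.09 (unadjusted p = 0.0463, adjusted p = 0.316 by limma) and 0.04 without PA replicates 2 and 4, and PA against SA was 0.22 ± 0.09 (adjusted p = 0.262). With PMA, SA and OA the differences from control were 0.03, -0.03 and -0.04. The second, dimmer probe set of Prdm16 had PA against control at 0.11 ± 0.07. None of the 11 measured genes of the PRDM family, Mecom and Prdm15 among them, passed.

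Ppargc1a was lowest in the cells given PA. Its level was 7.88, 7.90, 7.96 and 7.85 on PA arrays, 8.17, 8.11, 8.10 and 8.23 on PMA arrays, 8.23, 8.31, 8.01 and 8.02 on SA arrays, 8.15, 8.21 and 8.14 on OA arrays and 8.12, 8.03, 8.16 and 7.97 on control arrays. Every PA array was below every other array of the study, and the other 4 groups overlapped with each other. Against control the difference was -0.17 ± 0.06 with PA (95% interval -0.31 to -0.04, unadjusted p = 0.0137, adjusted p = 0.244). It was 0.08 ± 0.06 with PMA, 0.07 ± 0.06 with SA and 0.10 ± 0.07 with OA.

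Set against its matched acids, PA gave a Ppargc1a level 1.20-fold lower than PMA and 1.19-fold lower than SA. PA against PMA was -0.26 ± 0.06 and missed the threshold at an adjusted p of 0.0529, which was 0.035 without PA replicate 3, 0.0408 without SA replicate 2 and 0.0491 without SA replicate 4, and PA against SA was -0.25 ± 0.06 (adjusted p = 0.131). Without PA replicates 2 and 4, PA against PMA was -0.23 with an adjusted p of 0.352, and without PMA replicates 1 and 4 it was -0.21 with an adjusted p of 0.313. SA and OA differed by -0.03 (95% interval -0.17 to 0.12) and PMA and OA by -0.02 (-0.16 to 0.13). The test of whether the double bond made a different change at 16 than at 18 carbons gave -0.23 ± 0.09 (unadjusted p = 0.023, adjusted p = 0.929). A second Ppargc1a probe set, dimmer at a mean of 5.94, had PA against control at -0.27 ± 0.12, against PMA at -0.20 ± 0.12 and against SA at -0.29 ± 0.12, and none of these passed. The relative Ppargc1b was at 0.12, 0.05, 0.02 and 0.07 against control with PA, PMA, SA and OA, and it did not pass either.

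**Figure D1:**
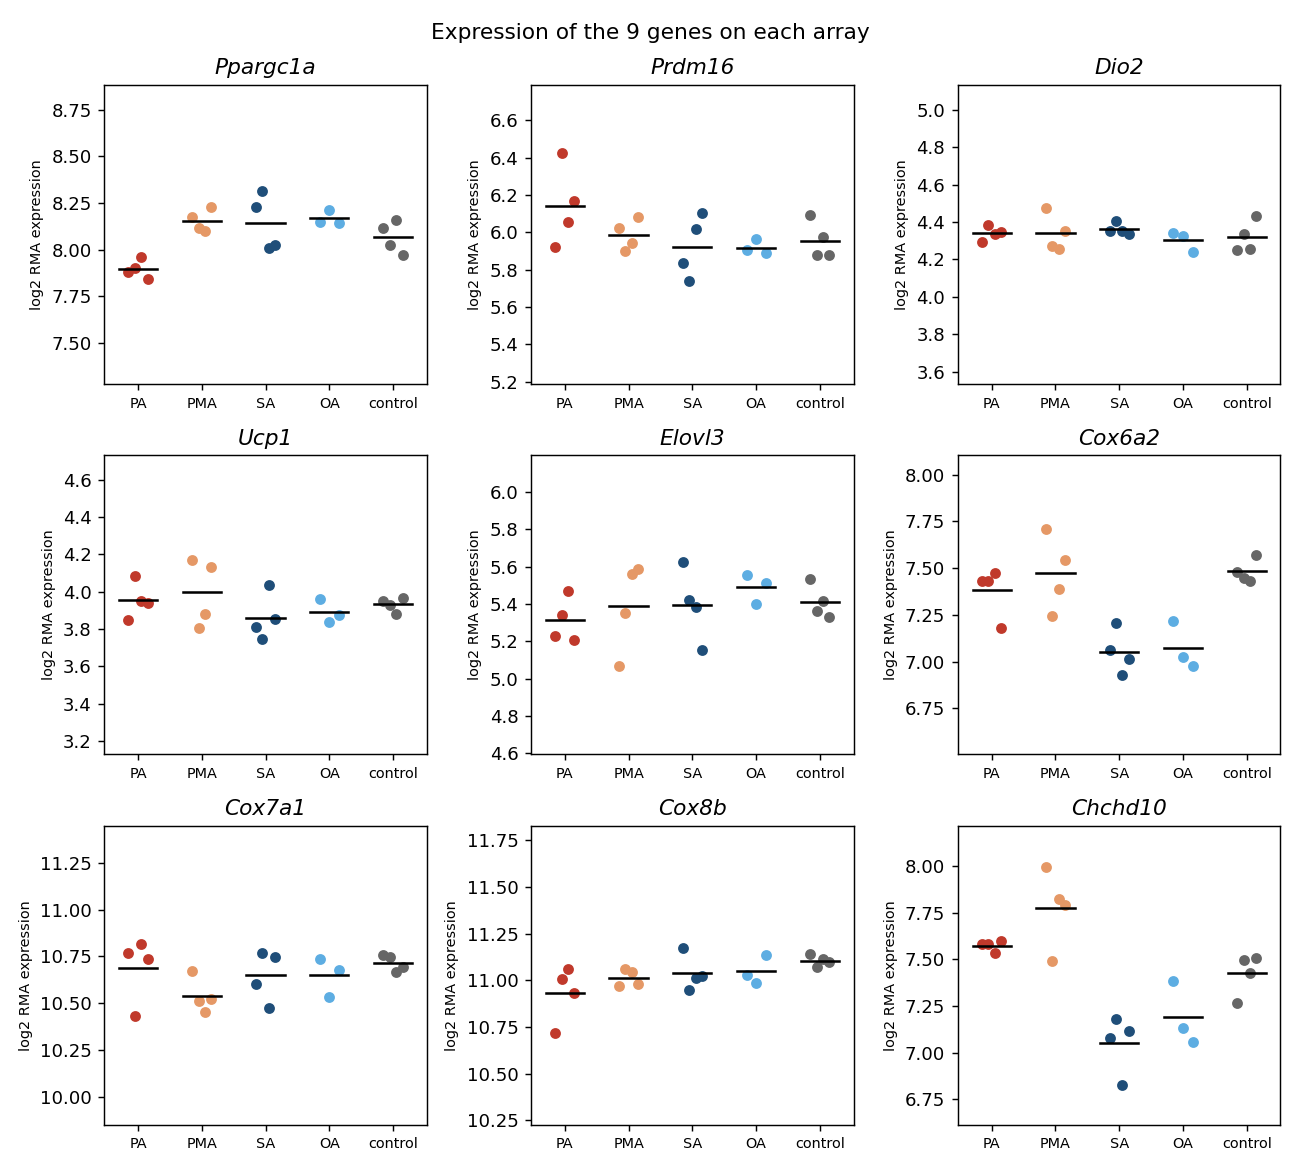
Log2 RMA level of each of the 9 members on each array, with 1 panel per gene and the groups PA, PMA, SA, OA and control along the horizontal axis. Points are arrays and bars are group means. The Ppargc1a values of PA (7.85 to 7.96) lie under all others, and the Cox6a2 values of SA and OA (6.93 to 7.22) lie under all control values.

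Of the muscle-type oxidase subunits, Cox6a2 was the one that changed. It belongs to the form of cytochrome c oxidase found in heart and skeletal muscle. Its level was 7.43, 7.43, 7.48 and 7.18 on PA arrays, 7.71, 7.24, 7.39 and 7.54 on PMA arrays, 7.06, 7.20, 6.93 and 7.02 on SA arrays, 7.22, 7.02 and 6.97 on OA arrays and 7.48, 7.45, 7.43 and 7.57 on control arrays. All 7 arrays of the 18-carbon acids lay below all 4 control arrays, while the 16-carbon acids overlapped with control. Cox6a2 fell by 25.8% with SA (-0.43 ± 0.09, 95% interval -0.61 to -0.25, adjusted p = 0.0483) and fell by 24.7% with OA (-0.41 ± 0.09, -0.61 to -0.21, adjusted p = 0.041). The difference was -0.10 ± 0.09 with PA and -0.01 ± 0.09 with PMA (adjusted p = 0.962 for PMA), and neither passed. The SA call was lost when any 1 of 13 of the 19 arrays was left out (each control, SA or OA array, or PMA replicate 3 or 4), with an adjusted p of up to 0.187 without control replicate 4 and the difference between -0.48 and -0.39. The OA call was lost with any 1 of 10 (each control or OA array, PMA replicate 3 or 4, or SA replicate 1), with an adjusted p of up to 0.219 without OA replicate 3 and the difference between -0.48 and -0.36. With the replicate number as a block their adjusted p-values were 0.0665 (SA) and 0.0634 (OA).

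Cox6a2 was the 1 member of 9 that passed with SA and with OA, and it was lower in both. Over all genes 0.165% passed in SA against control, 0.0584% of all genes lower, and 0.861% in OA against control, 0.404% of all genes lower. In PA against control 0 of the 9 members and 0% of all genes passed, and in PMA against control 0 of the 9 and 0.266% of all genes. At an unadjusted p under 0.05 there were 3 members with PA, 2 with PMA, 2 with SA and 2 with OA, beside 15.4%, 16.0%, 8.53% and 11.6% of all genes. The 4 comparisons share their control arrays. Medians of the 9 differences were -0.03 (PA), 0.02 (PMA), -0.07 (SA) and -0.04 (OA), beside 0.03, 0.06, 0.02 and 0.02 over all genes. With cyclic loess, a trended robust spread or array quality weights, Chchd10 also passed in SA against control.

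Cox7a1 and Cox8b, the other muscle-type subunits, passed in no comparison. Cox7a1 had 10.77, 10.43, 10.82 and 10.74 on PA arrays, 10.67, 10.51, 10.45 and 10.52 on PMA arrays, 10.60, 10.77, 10.48 and 10.75 on SA arrays, 10.73, 10.53 and 10.68 on OA arrays and 10.76, 10.75, 10.67 and 10.69 on control arrays. Its groups overlapped, and its largest difference from control was -0.18 ± 0.08 with PMA (unadjusted p = 0.0355, adjusted p = 0.276). Cox8b had 10.72, 11.01, 11.06 and 10.93 on PA arrays, 10.97, 11.06, 11.04 and 10.98 on PMA arrays, 11.17, 10.95, 11.01 and 11.02 on SA arrays, 11.03, 10.99 and 11.14 on OA arrays and 11.14, 11.07, 11.11 and 11.10 on control arrays. All PA arrays and all PMA arrays were below the control arrays, by -0.18 ± 0.06 (adjusted p = 0.243) and -0.09 ± 0.06 (adjusted p = 0.484). Without PA replicates 2 and 4 the PA difference was -0.22. Groups that do not overlap were found for 5.55% of all genes in PA against control and for 10.6% in PMA against control, and for 3 and 1 of the 9 members. In SA against control it was 2 of the 9, beside 7.39%, and in OA against control 1 of the 9, beside 14.4%.

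The widely expressed partners of these subunits did not pass. Cox6a1 was at 0.05, 0.12, 0.08 and 0.10 against control with PA, PMA, SA and OA, Cox7a2 at 0.14, 0.07, 0.09 and 0.08, and Cox8a at 0.04, 0.07, 0.08 and 0.10. All 12 differences of the muscle-type forms were below 0 (-0.43 to -0.01) and all 12 of their partners were above 0 (0.04 to 0.14), also after cyclic loess. Only the 2 Cox6a2 differences with SA and OA passed, and the comparisons share the control arrays. This count of signs was not among the designed comparisons. A further paralogue, Cox7a2l, lay above control only with PA (8.90, 8.82, 8.84 and 8.80, against 8.85 in control cells). Medians of the 14 oxidase subunits and paralogues outside the members were 0.05 (PA), -0.0007 (PMA), 0.003 (SA) and -0.01 (OA). Over all genes the medians were 0.03, 0.06, 0.02 and 0.02. None of the 14 measured subunits and paralogues outside the members passed. Ndufa4, a small subunit once counted with the respiratory chain's first complex, came closest by the F test with 0.06, -0.08, -0.15 and -0.21 (adjusted p = 0.0941), followed by Cox6b2, a form of testis, with 0.16, -0.11, -0.12 and -0.17 (adjusted p = 0.216).

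**Figure D2:**
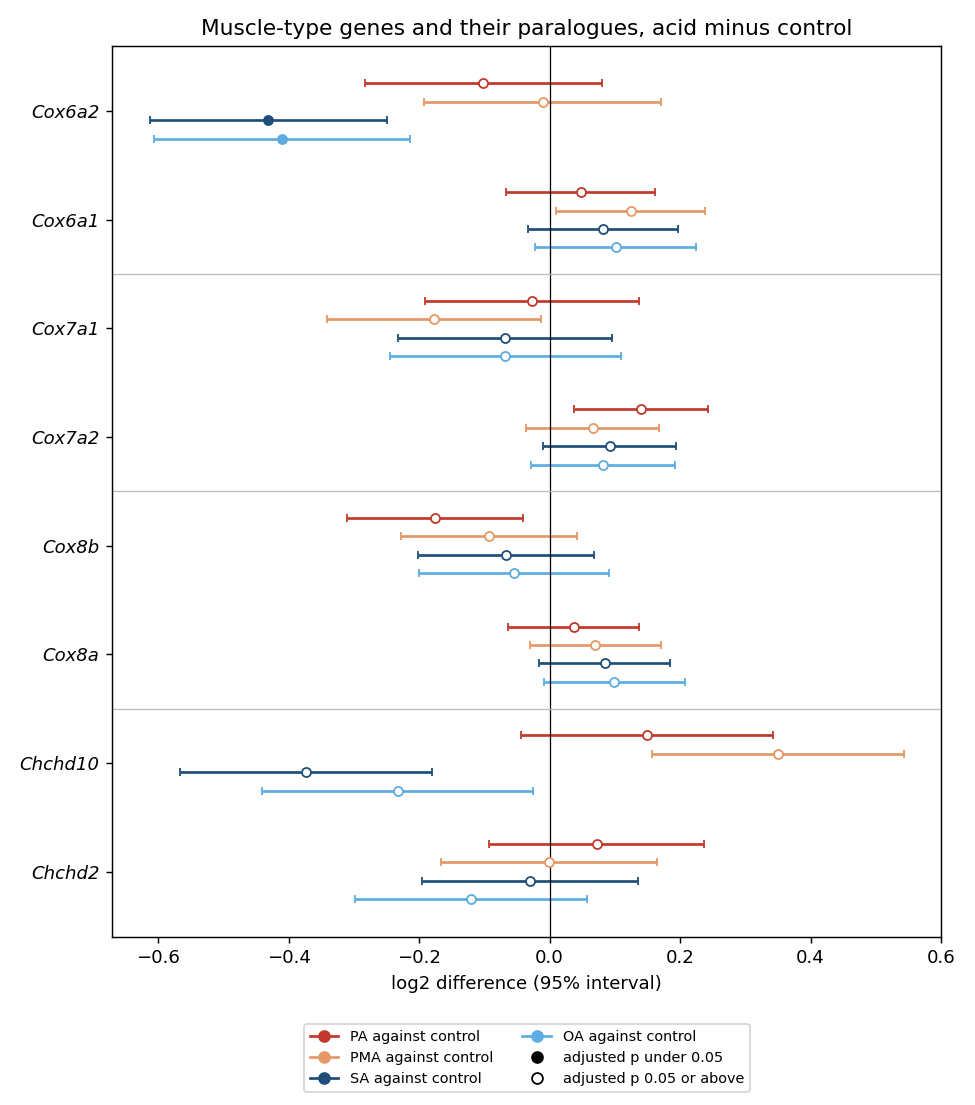
Differences from control (log2, with 95% intervals) of the muscle-type oxidase subunits, Chchd10 and related genes with PA, PMA, SA and OA. Filled points passed at an adjusted p under 0.05 and open points did not. Cox6a2 with SA (-0.43) and OA (-0.41) is filled, while Cox6a1 stays between 0.05 and 0.12.

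Chchd10 had the smallest F test p of the 9 members. Its level was 7.58, 7.58, 7.53 and 7.60 on PA arrays, 7.99, 7.49, 7.82 and 7.79 on PMA arrays, 7.08, 7.18, 6.83 and 7.12 on SA arrays, 7.38, 7.13 and 7.06 on OA arrays and 7.27, 7.49, 7.43 and 7.51 on control arrays. All 8 arrays of the 16-carbon acids lay above all 7 arrays of the 18-carbon acids. The PA arrays lay above the control arrays and the SA arrays below them, while PMA and OA overlapped with control. In the F test over the 5 groups Chchd10 ranked 19 of 18820 genes (adjusted p = 0.000979) and Cox6a2 86 (adjusted p = 0.0113). These were 2 of the 9 members, beside 1.47% of all genes. The members were chosen with earlier results of these data known, so the count is not an independent test.

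Against control no acid moved Chchd10 past the threshold. The differences were 0.15 ± 0.09 with PA (adjusted p = 0.428), 0.35 ± 0.09 with PMA (0.16 to 0.54, adjusted p = 0.0941, or 0.0405 without PMA replicate 2), -0.37 ± 0.09 with SA (-0.57 to -0.18, adjusted p = 0.124) and -0.23 ± 0.10 with OA (adjusted p = 0.35). The acids thus lay on both sides of the control cells, and the mean of the 4 acids was at -0.03 ± 0.07 from control. The order of the mean levels was PMA (7.77 ± 0.21), PA (7.57 ± 0.03), control (7.42 ± 0.11), OA (7.19 ± 0.17) and SA (7.05 ± 0.16, SD). No neighbours in that order differed past the threshold.

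**Figure D3:**
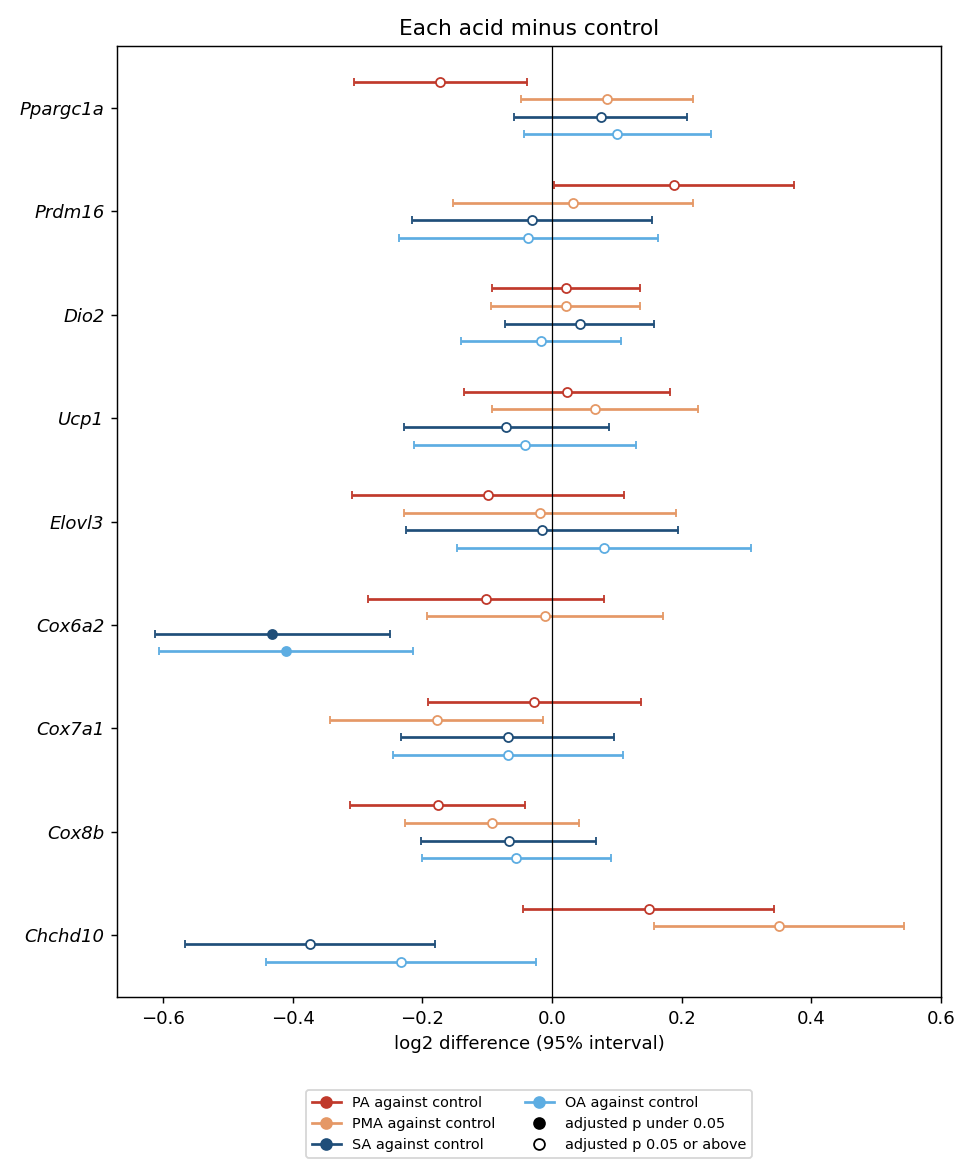
Difference from control on the log2 scale, with its 95% interval, for the 9 members with each of the 4 acids. Filled points passed at an adjusted p under 0.05 and open points did not. Chchd10 lies to the right of 0 with PA (0.15) and PMA (0.35) and to the left with SA (-0.37) and OA (-0.23).

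The acids form 4 pairs that differ in 1 named feature at the same dose and time, so each feature could be compared directly. In the pairs that differ by chain length, Chchd10 was higher with the shorter acid. PA against SA was 0.52 ± 0.09 (0.33 to 0.72), a 1.44-fold difference with an adjusted p of 0.0194, and PMA against OA was 0.58 ± 0.10 (0.37 to 0.79), a 1.50-fold difference with an adjusted p of 0.026. Chchd10 was the 1 member of 9 that passed in each, beside 0.143% of all genes in PA against SA and 0.0531% in PMA against OA, with 0.0425% higher in each. At an unadjusted p under 0.05 there were 4 members in PA against SA and 2 in PMA against OA, beside 15.8% and 8.61% of all genes. In each pair 2 members had groups that did not overlap, beside 5.30% and 8.89% of all genes. The first call was lost without PA replicate 4 (adjusted p = 0.0785), SA replicate 1 (0.0639) or SA replicate 3 (0.0878). The second was lost without PMA replicate 1 (0.113), 3 (0.095) or 4 (0.0918) or OA replicate 2 (0.252) or 3 (0.282). Without PA replicates 2 and 4, PA against SA had an adjusted p of 0.221, and without PMA replicates 1 and 4, PMA against OA was 0.47 with an adjusted p of 0.481. Cox6a2 was 0.33 ± 0.09 in PA against SA (adjusted p = 0.134) and 0.40 ± 0.09 in PMA against OA (adjusted p = 0.17), and neither passed. Without PMA replicate 2, Cox6a2 passed in PMA against OA at 0.48 (adjusted p = 0.046).

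In the pairs that differ by the double bond, 0 of the 9 members passed, beside 0.962% of all genes in PA against PMA and 0.0319% in SA against OA. At an unadjusted p under 0.05 there were 2 members in PA against PMA, Ppargc1a and Chchd10, and 0 in SA against OA, beside 17.7% and 2.40% of all genes. The groups of 1 member (Ppargc1a) did not overlap in PA against PMA and of 0 members in SA against OA, beside 8.01% and 4.63%. Chchd10 was -0.20 ± 0.09 in PA against PMA (-0.39 to -0.01, adjusted p = 0.263) and -0.14 ± 0.10 in SA against OA (-0.35 to 0.07). Cox6a2 was -0.09 ± 0.09 (-0.27 to 0.09) and -0.02 ± 0.09 (-0.22 to 0.18). For the saturated against the monounsaturated acids 0 of 9 passed, beside 0.553% of all genes, with Ppargc1a at -0.14 ± 0.05 (adjusted p = 0.22) and Chchd10 at -0.17 ± 0.07 (adjusted p = 0.315). For the interaction of chain length with the double bond 0 of 9 passed, beside 0.00531% of all genes, and Chchd10 was at -0.06 ± 0.14 (-0.34 to 0.22). For the mean of the 4 acids against control 0 of 9 passed, beside 0.197% of all genes, with Cox6a2 at -0.24 ± 0.07 (adjusted p = 0.138).

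Both chain lengths were also compared over their acids, PA and PMA against SA and OA, a comparison added after the values had been seen. Chchd10 was 0.55 ± 0.07 higher with 16 carbons (0.41 to 0.69, adjusted p = 0.000244) and Cox6a2 0.36 ± 0.06 higher (0.23 to 0.50, adjusted p = 0.00816). These were 2 of the 9 members, both higher, beside 0.510% of all genes and 0.345% that were higher. At an unadjusted p under 0.05 there were 4 members, beside 18.9%. The Chchd10 groups did not overlap, as for 0.260% of all genes, and the Cox6a2 groups overlapped through PA replicate 4. Without PMA replicates 1 and 4 Chchd10 was at 0.49 (adjusted p = 0.00417) and Cox6a2 at 0.29 (adjusted p = 0.075), so the Cox6a2 call was lost. Without PA replicates 2 and 4 both passed, at 0.54 (adjusted p = 0.00213) and 0.40 (adjusted p = 0.00767). The other 7 members lay between -0.13 (Ppargc1a, adjusted p = 0.173) and 0.14 (Prdm16, adjusted p = 0.245).

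**Figure D4:**
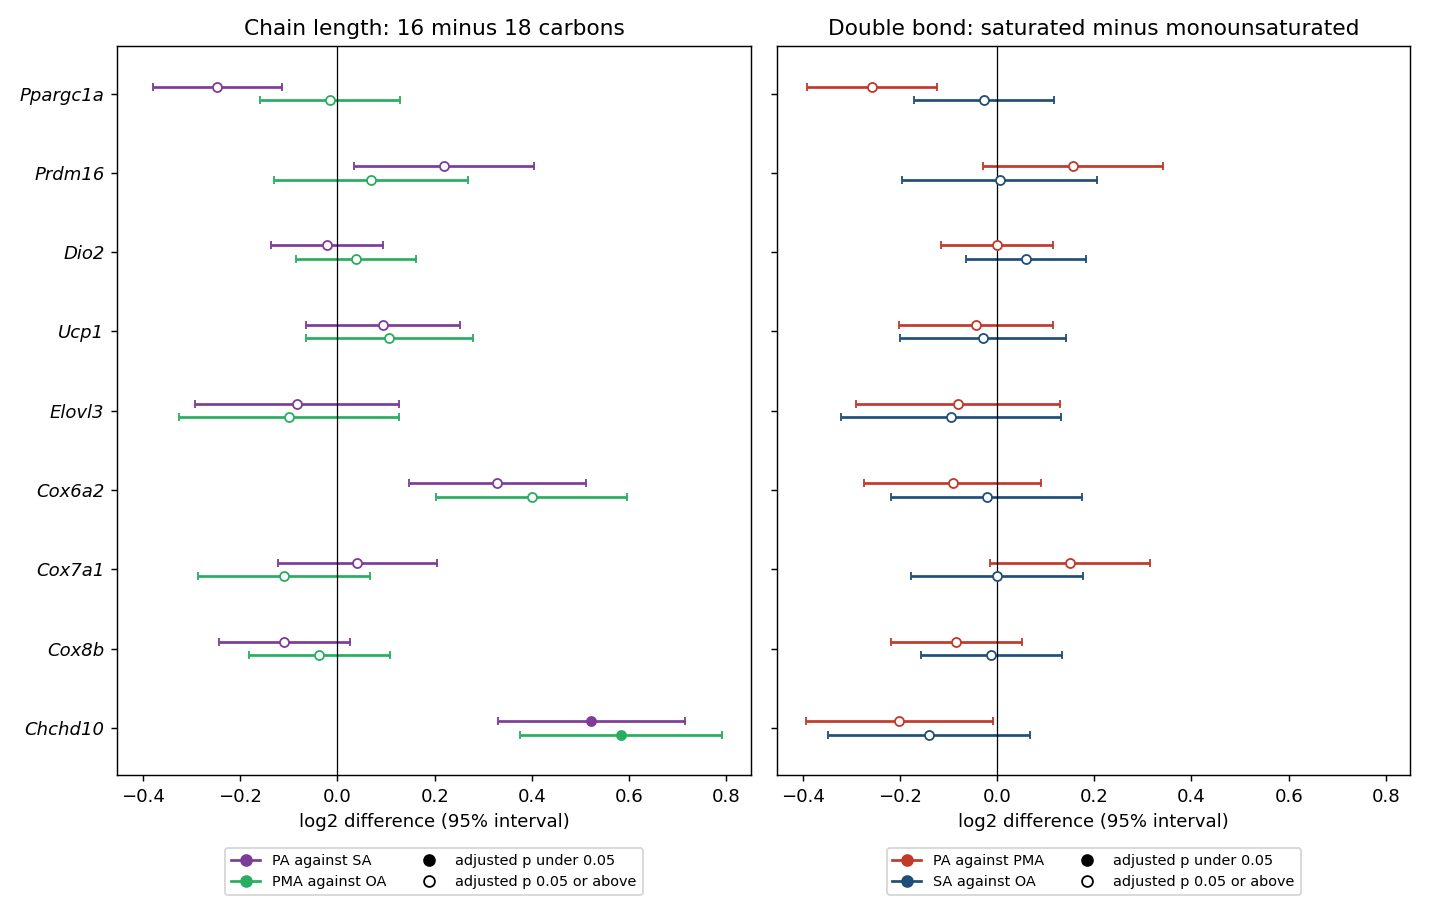
Log2 differences with 95% intervals of the 9 members in the 4 matched pairs of acids. The left panel sets 16 against 18 carbons (PA against SA, PMA against OA) and the right panel no double bond against 1 (PA against PMA, SA against OA). Filled points passed at an adjusted p under 0.05 and open points did not. Chchd10 on the left is filled at 0.52 and 0.58, and no point on the right is filled.

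Within the groups, the correlation of Chchd10 with Cox6a2 did not pass after adjustment. Over the 19 arrays, with each group's mean taken off, Pearson's r was 0.72 and Spearman's rho 0.63 (permutation p = 0.00618 and 0.0137 within groups, adjusted over the 36 pairs of members 0.0887 and 0.164). Without PMA replicates 1 and 2, the arrays farthest out in Cox6a2, r was 0.52. Within single groups r was -0.72 (PA), 0.90 (PMA), 0.85 (SA), 1.00 (OA) and 0.25 (control), each over 3 or 4 arrays. In PA the array with the lowest Cox6a2 level, replicate 4, had the highest Chchd10 level.

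**Figure D5:**
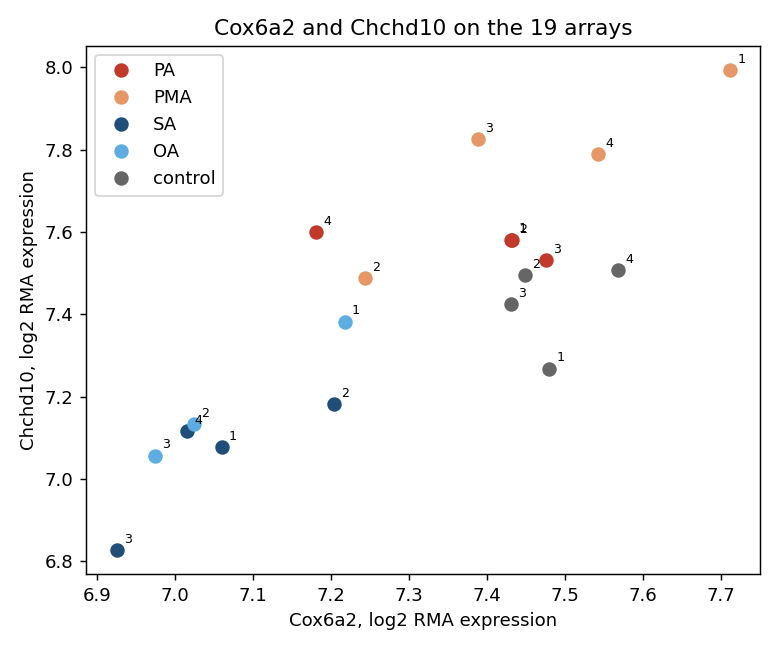
Log2 RMA levels of Cox6a2 (horizontal) and Chchd10 (vertical) on the 19 arrays, coloured by group and numbered by replicate. The SA and OA arrays lie at the lower left, with PMA replicate 1 at the upper right (7.71 and 7.99). The PA arrays lie above the control arrays in Chchd10.

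The genes whose levels followed these members most closely over the 19 arrays are given as a description, since the arrays share their groups. For Chchd10 they were Pck2 (r = 0.94), the mitochondrial form of phosphoenolpyruvate carboxykinase, Trib3 (0.92), a pseudokinase, Atp2a3 (0.89), a calcium pump of the endoplasmic reticulum, Adamtsl5 (0.88) and Acox2 (0.87), a peroxisomal oxidase. For Cox6a2 they were Chac1 (0.89), which degrades glutathione, Rhoc (0.87), Imp3 (0.87), Nob1 (0.86) and again Pck2 (0.86). With the group means taken off, the r values were between 0.48 (Acox2) and 0.77 (Trib3) for Chchd10 and between 0.60 (Rhoc) and 0.73 (Chac1) for Cox6a2.

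In the family of proteins that share the paired-cysteine fold of Chchd10 and in the complex that shapes the inner membrane's folds, 12 of 13 listed genes were measured and 1 passed, in OA against control, where 0.861% of all genes passed. Chchd1, a protein of the mitochondrial ribosome, fell with OA to 6.49, against 7.01 in control cells (-0.52 ± 0.10, adjusted p = 0.0193). It was at -0.13 with PA, -0.38 with PMA and -0.34 with SA, none past the threshold. Chchd2, the closest paralogue of Chchd10, was at 0.07, 0.00, -0.03 and -0.12 with PA, PMA, SA and OA, and did not pass. Micos10, a core part of that complex, was at -0.07, -0.14, -0.11 and -0.25.

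The promoter sequences of 7 members were matched by gene identifier in RefSeq (GRCm38.p6), each from 250 bases before to 50 after the annotated start. Shown are Chchd10, whose level differed with chain length, and Cox7a1 and Cox8b, muscle-type genes whose level did not pass. Capitals mark matches on either strand to 6 motifs that were searched. TATAAA is the TATA box, and CCAAT is a common promoter box. CAGCTG is an E-box bound by muscle regulators. TGACGTCA is a cAMP response element. AGGTCA is a nuclear receptor half-site, and its extended form TNAAGGTCA contains it. The Chchd10 window is chr10:75932880-75933179 on the plus strand, the Cox7a1 window chr7:30183921-30184220 on the plus strand and the Cox8b window chr7:140900397-140900696 on the minus strand.
Chchd10: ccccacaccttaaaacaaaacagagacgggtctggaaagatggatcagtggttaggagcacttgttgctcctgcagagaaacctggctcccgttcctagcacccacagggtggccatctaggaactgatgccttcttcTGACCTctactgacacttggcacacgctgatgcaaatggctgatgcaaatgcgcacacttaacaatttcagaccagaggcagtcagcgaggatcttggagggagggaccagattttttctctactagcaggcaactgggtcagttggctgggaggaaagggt
Cox7a1: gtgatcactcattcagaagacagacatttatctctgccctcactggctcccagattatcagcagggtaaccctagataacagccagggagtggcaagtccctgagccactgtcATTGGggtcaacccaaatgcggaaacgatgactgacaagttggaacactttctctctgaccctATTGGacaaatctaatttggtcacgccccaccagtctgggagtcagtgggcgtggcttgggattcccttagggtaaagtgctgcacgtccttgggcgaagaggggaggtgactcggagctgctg
Cox8b: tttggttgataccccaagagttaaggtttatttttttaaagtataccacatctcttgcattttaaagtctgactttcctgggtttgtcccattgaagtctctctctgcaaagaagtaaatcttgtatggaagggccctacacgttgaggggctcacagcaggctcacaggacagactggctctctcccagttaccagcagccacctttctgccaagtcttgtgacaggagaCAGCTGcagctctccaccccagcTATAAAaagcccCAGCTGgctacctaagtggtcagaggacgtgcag

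The 3 windows shared none of these motifs. Chchd10 held AGGTCA on the opposite strand, as TGACCT, at bases 139 to 144, and 16.3% of the 32851 promoters in the table held it. Cox7a1 held CCAAT, as ATTGG, starting at bases 114 and 177 (37.4% of promoters). Cox8b held CAGCTG starting at bases 232 and 267 (16.3%) and TATAAA at 255 to 260 (13.6%). This TATAAA and the CAGCTG at 267 lie after the annotated start, unlike the usual place of a TATA box before it. Among the others, Dio2 held TGACGTCA (1.79%) and TATAAA, Ucp1 held AGGTCA, Prdm16 held CCAAT and Ppargc1a held none. TNAAGGTCA (1.28%) matched in none of the 7. These are matches of letters in one window and bear on no factor's binding.

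Few genes of the wider thermogenic lists passed. Of 32 measured genes of thermogenic transcription, 8 of thyroid hormone activation and transport and 17 of uncoupling and futile cycles, 0 passed the F test or any designed comparison. Ebf2, which marks brown precursor cells, came closest among the first with -0.03 (PA), 0.15 (PMA), 0.11 (SA) and 0.24 (OA) against control (F test adjusted p = 0.057), before Cebpd, an early factor of fat cell differentiation, with 0.22, 0.04, -0.03 and -0.07 (adjusted p = 0.107). Dio3, which inactivates thyroid hormone, was at 0.32, 0.26, 0.18 and 0.24, at a mean level of 4.56 within the background range, and Dio1 at 0.03, -0.03, 0.04 and 0.12. Ucp3, the uncoupling protein of muscle, was at 0.08, 0.11, 0.16 and 0.14. Alpl and Ckb, enzymes of a creatine cycle, were at 0.19 and -0.18 with OA. In PA, PMA, SA, OA and control, Alpl averaged 8.46, 8.51, 8.57, 8.67 and 8.48, and Ckb 6.36, 6.30, 6.12, 5.99 and 6.18. Ncoa2, a nuclear receptor coactivator, was at 0.10 with OA and averaged 8.36, 8.46, 8.49, 8.48 and 8.38 in that order. The F test adjusted p was 0.298 for Alpl, 0.306 for Ckb and 0.299 for Ncoa2.

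Of 30 measured markers of brown and beige adipocytes 1 passed, in OA against control, where 0.861% of all genes passed. Cidea, a lipid droplet protein of brown fat, rose with OA to 6.04, against 5.61 in control cells (0.43 ± 0.09, adjusted p = 0.0209). It was at 0.03 with PA, 0.20 with PMA and 0.31 with SA, none past the threshold. The median of the 30 in OA against control was -0.01, beside 0.02 over all genes. Zic1 (3.74) and Lhx8 (4.49), markers of classical brown fat, lay within the background range. Of the 30 markers 22 lay above the 95th percentile of the receptor genes, among them Ebf2 (8.13) and Cidea (5.79).

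Of 17 measured genes of adrenergic and cAMP input 2 passed, both in PA against PMA, where 0.962% of all genes passed. Prkar2a, a regulatory subunit of protein kinase A, was at 7.90 with PA, against 8.17 with PMA (-0.28 ± 0.07, adjusted p = 0.0471). Pde4b, which breaks down cAMP, was at 6.76 with PA, against 6.99 with PMA (-0.22 ± 0.05, adjusted p = 0.0366), and it was also lower with the saturated acids (-0.17 ± 0.04, adjusted p = 0.034). Prkacb, a catalytic subunit, was at 0.10, 0.24, 0.12 and 0.24 against control and did not pass.

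Markers of cell identity moved in a few genes. The F test was passed by 2 of 20 adipocyte, 3 of 12 white-type and 3 of 15 preadipocyte markers. It was also passed by 1 of 13 macrophage and T cell markers and 0 of 8 endothelial markers, beside 1.47% of all genes. Lep counts in both the adipocyte and the white-type list. Zfp521 and Postn passed it, and Col1a1 did not (F test adjusted p = 0.0806). Of 20 adipocyte markers 2 passed the F test and 0 any designed comparison: Lep was at 0.01, -0.17, 0.17 and 0.18 against control with PA, PMA, SA and OA (F test adjusted p = 0.0173) and Plin1 at 0.08, 0.16, 0.20 and 0.19 (adjusted p = 0.0495). Of 12 white-type markers Wfdc21 fell with PMA against control (-0.34 ± 0.06, adjusted p = 0.00906). In PA against PMA 1 of the 12 was higher and 1 lower: Wfdc21 was at 7.35 with PA, against 6.86 with PMA (0.49 ± 0.06, adjusted p = 8.58e-05), and Dpt at 10.98 with PA, against 11.23 with PMA (-0.25 ± 0.05, adjusted p = 0.0218). Both kept these directions and passed in the saturated against the monounsaturated acids, at 0.36 (Wfdc21) and -0.18 (Dpt). Of 15 preadipocyte markers Col1a1 rose with PMA (0.26 ± 0.05, adjusted p = 0.0463), Zfp521 rose with OA (0.27 ± 0.06, adjusted p = 0.041), and Postn was lower with PA than with PMA (-0.24 ± 0.05, adjusted p = 0.0331). Over all genes 0.266% passed in PMA against control, 0.861% in OA against control and 0.962% in PA against PMA. In the saturated against the monounsaturated acids it was 0.553%. In 16 against 18 carbons, compared after the values had been seen, it was 0.510%. The mean level of the 15 preadipocyte markers was 9.46 to 9.54 on PA arrays, 9.57 to 9.69 on PMA arrays, 9.53 to 9.55 on SA arrays, 9.52 to 9.62 on OA arrays and 9.47 to 9.52 on control arrays. Their part in the values of Ppargc1a, Chchd10 and Cox6a2 was not tested. Of the muscle list, Mb was at -0.03, -0.21, 0.05 and 0.24 and Des at -0.13, 0.05, -0.13 and -0.07. Of 13 macrophage and T cell markers Cd68 passed the F test (-0.07, 0.32, -0.25 and -0.16, adjusted p = 0.0154) and Lyz2 did not (-0.45, -0.10, -0.31 and -0.18). Like Chchd10 and Cox6a2, Cd68 was higher with 16 than with 18 carbons (0.34 ± 0.07, adjusted p = 0.0342), and Lep was lower (-0.26 ± 0.05, adjusted p = 0.00903). The mean level of the 13 macrophage and T cell markers was 4.69 to 4.88 on PA arrays, 4.76 to 4.90 on PMA arrays, 4.69 to 4.73 on SA arrays, 4.72 to 4.73 on OA arrays and 4.68 to 4.76 on control arrays. Adgre1 lay near the median of the background, and 5 of the 13 lay above its 95th percentile. The part of these markers in the chain-length differences was not tested. Of 8 endothelial markers 0 passed, with Vwf at 0.20, 0.20, 0.14 and 0.09 and Cldn5 at 0.20, 0.08, 0.04 and -0.01.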

How the data were processed

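Total RNA (100 ng per array) of the 19 samples was hybridised to Affymetrix Mouse Gene 1.1 ST arrays. The deposited log2 values were made by the authors by RMA; the submitters' processing notes name affy 1.34.0 and R 2.15.0. Values run between 1.97 and 13.29. RMA fits each probe set over all arrays together. The scan files were not used here. Of 35556 probe sets 21218 had 1 gene symbol, 1881 several and 12457 none in the platform annotation, and 18820 genes were kept at their brightest probe set, with no filter on low values.

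limma 3.58.1 in R 4.3.3 fitted 1 mean per group to all 19 arrays (lmFit, eBayes, no trend, not robust). Tests were two-sided, with Benjamini-Hochberg adjustment over the 18820 genes within each of 11 designed comparisons and the F test. The comparison of 16 with 18 carbons was added after the values were seen. The fit was tested on simulated data. Correlations of members used 100000 permutations within groups. The number of arrays limits the precision.

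The members and lists were chosen with earlier results of these data known. Named were the members, listed genes past the threshold in a designed comparison, the 2 of each list with the smallest F test p, the closest paralogues, and the 5 genes most correlated with each member that passed. Ucp2 was not analysed here. Same-numbered arrays did not deviate together (r over 0.1 in 6 of 36 pairs, from -0.43 to 0.40), so the numbers were not taken to pair samples. Alternatives were a filter on dim genes, other uses of probe sets, cyclic loess, a trended robust spread, array weights, the replicate block, only the arrays compared, each array left out, and, added after seeing the data, 2 PA or 2 PMA arrays left out together.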

Additional observations from a re-analysis of the deposited data

Results flagged for a closer look

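Cox6a2 in PA replicate 4, at 7.18, stood apart from the other 3 PA arrays, whose nearest value was 7.43. Its gap took 0.848 of the range of the group. It was 1 of 36 sets of arrays examined in this way, and chance gives about 1 in 20.

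The effects of PA and SA on Chchd10 against control differed by 0.52 (adjusted p = 0.0194 by limma), with the mean of PA above and that of SA below the control cells. The effects of PMA and OA on Chchd10 differed by 0.58 (adjusted p = 0.026), with the mean of PMA above and that of OA below. These are the same tests as PA against SA and PMA against OA above, not further results, and each call was lost without certain single arrays. Both differences compare the acids directly, so the mean of the shared control cells drops out of them. The control arrays still entered the estimate of spread behind the p-values, as did the arrays of the other acids. With limma fitted to only the arrays compared, neither Chchd10 call passed. The adjusted p was then 0.0917 in PA against SA and 0.164 in PMA against OA.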

How the results depend on the processing

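Over 108 differences of the 9 members, the alternatives gave 3099 values, of which 39 were no longer past the threshold, 15 were newly past it and 0 called values changed sign. Values not past the threshold changed sign 126 times, the largest of them 0.15 in the fit as reported. The number of members past the threshold moved as follows. In PA against PMA it was 1 without the dimmest genes (lowest 1 in 3 by mean) (7 members stayed in that fit) and 1 with a trended robust spread, Ppargc1a in both. In SA against control it was 2 with cyclic loess, 2 with a trended robust spread, 2 with array weights and 0 with the replicate block. In OA against control it was 0 with the replicate block. In PMA against control it was 1 with a trended robust spread and 1 with array weights. In the mean of the 4 acids against control it was 1 with cyclic loess and 1 with array weights. In PMA against OA it was 2 with array weights, 0 with the replicate block, 0 with only the arrays compared and 0 without PMA replicates 1 and 4. In PA against SA it was 0 with only the arrays compared and 0 without PA replicates 2 and 4. In 16 against 18 carbons it was 1 without PMA replicates 1 and 4. Fits to the arrays compared hold fewer samples; for the other settings the cause was not tested. With 1 array left out the number ran from 0 to 1 in SA, OA and PMA against control, PA against SA and PA against PMA, and from 0 to 2 in PMA against OA. The replicate block ended the calls of Cox6a2 in SA against control (adjusted p = 0.0665) and in OA against control (0.0634) and of Chchd10 in PMA against OA (0.0768), and it changed no other member's call.

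Over all genes the count past the threshold, against the range under alternatives other than leaving 1 array out, was 0 (0 to 2) for PA, 50 (3 to 315) for PMA, 31 (23 to 228) for SA and 162 (72 to 1188) for OA against control, 181 (22 to 489) for PA against PMA, 6 (4 to 24) for SA against OA, 27 (2 to 63) for PA against SA, 10 (2 to 79) for PMA against OA, 104 (51 to 255) for saturated against monounsaturated, 37 (18 to 506) for the mean of 4 acids, 96 (31 to 349) for 16 against 18 carbons and 276 (129 to 905) in the F test. With 1 array left out the count ran from 0 to 510 (without PA replicate 1) for PA against control. For PMA against control it ran from 8 (without control replicate 4) to 129 (without PA replicate 2). For SA against control it ran from 4 (without control replicate 4 or SA replicate 3) to 59 (without PA replicate 2). For OA against control it ran from 22 (without OA replicate 3) to 243 (without PA replicate 2). It ran from 49 (without PA replicate 4) to 638 (without PA replicate 3) for PA against PMA and from 0 (without OA replicate 3) to 7 for SA against OA. For PA against SA it ran from 9 (without SA replicate 2) to 499 (without PA replicate 1). For PMA against OA it ran from 4 (without PMA replicate 1 or 4, or OA replicate 3) to 19 (without PMA replicate 2). It ran from 46 (without OA replicate 3) to 130 for saturated against monounsaturated, from 4 (without control replicate 4) to 92 (without PA replicate 2) for the mean of 4 acids, from 45 (without PMA replicate 1) to 577 (without PA replicate 1) for 16 against 18 carbons and from 146 (without OA replicate 3) to 544 (without PA replicate 1) in the F test. The shares of all genes printed beside the members' counts move with these counts. Ucp1 and Dio2 lay within the range of the background genes, and OA rests on 3 arrays.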
